A study of Mus musculus with 6 samples.

Results

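Expression of 10 genes of the response to endoplasmic reticulum stress, Hspa5, Hsp90b1, Dnajb9, Ddit3, Atf4, Xbp1, Herpud1, Asns, Trib3 and Ddit4, was measured on arrays in cultured mouse podocytes, the epithelial cells of the kidney's filter, that carried a control hairpin RNA or one against the long non-coding RNA Tug1. The genes were chosen by name rather than by a cutoff on measured values, with earlier results of these data known, and every gene probe whose array annotation is a RefSeq accession of one of them was followed. This gave 12 probes for the 10 genes, with 2 probes each for Dnajb9 and Atf4, out of 39429 gene probes and 20659 gene symbols on the array. All 12 passed the filter on dim probes, which kept a probe if some group had it well above background on each of its arrays. The dimmer probes of Dnajb9 and Atf4 passed only through the clones, since 0 and 1 of the 2 shControl arrays measured them above background, so they had to differ if kept.

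The cells were podocytes immortalised with the SV40 T antigen, grown at 33 °C and differentiated at 37 °C for 10 days. All groups carried a lentiviral pGIPZ hairpin. The 2 shControl arrays came from cells with a scrambled hairpin, 2 arrays from shTug1 clone 2 and 2 from shTug1 clone 3. The labels do not say whether a clone is a cell clone or a hairpin construct, nor whether the 2 arrays of a group came from separate cultures, so the p-values measure only the spread between arrays, which may be technical.

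Unfolded protein in the endoplasmic reticulum is sensed by 3 membrane proteins of that organelle. IRE1 splices Xbp1 RNA, ATF6 is cut to release a transcription factor, and PERK phosphorylates the translation factor eIF2α, which slows protein synthesis while Atf4 is translated more. ATF4 is also made when amino acids run short, through the kinase GCN2, and podocytes, which secrete and renew much of the glomerular filter, are known to mount this response under stress. The arrays measured RNA, so neither ATF4 protein nor the splicing of Xbp1 was observed.

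The promoters of several of these genes hold the sequences through which this response is known to act, and 4 stretches are shown because they hold the matches upstream of the start, in 2 chaperone genes, in Herpud1, where 2 kinds of element are matched, and in Asns. They were read from RefSeq promoter windows of 300 bases on GRCm38.p6, which were found for all 10 genes, and each is printed on the gene's own strand with the matched letters in capitals.
Hspa5, chr2:34772010-34772058, plus strand: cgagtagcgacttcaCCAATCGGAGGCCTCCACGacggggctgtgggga
Hsp90b1, chr10:86705518-86705671, minus strand: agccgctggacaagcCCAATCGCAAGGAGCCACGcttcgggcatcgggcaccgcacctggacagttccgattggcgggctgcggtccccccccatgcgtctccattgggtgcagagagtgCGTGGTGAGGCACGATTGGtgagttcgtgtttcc
Herpud1, chr8:94386302-94386402, plus strand: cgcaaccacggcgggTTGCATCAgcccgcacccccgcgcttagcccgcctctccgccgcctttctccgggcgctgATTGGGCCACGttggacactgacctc
Asns, chr6:7693210-7693247, minus strand: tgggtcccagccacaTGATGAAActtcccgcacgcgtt

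Searched on both strands, the stress element ERSE (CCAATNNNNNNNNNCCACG) was matched in 2 of the 10 windows, once in Hspa5 and at 2 places in Hsp90b1, against 39 of all 32851 windows (0.119%). The element ERSE-II (ATTGGNCCACG) was matched in Herpud1 alone, against 12 of all windows (0.0365%). The composite C/EBP-ATF element (TGATGNAA), which ATF4 binds with a C/EBP partner, was matched in Herpud1, Asns and, downstream of the start, Trib3, against 3.97% of all windows. The UPRE core (TGACGTGG) was matched in none of the 10 windows and in 0.676% of all. No searched motif overlapped another in the printed stretches, and a match describes the letters only.

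The 75th percentile of the gene spots, on which every array was scaled, was 324 and 363 intensity units in shControl, 1055 and 949 in clone 2, and 569 and 832 in clone 3, while the brightest 1% of probes began at similar intensities on all arrays, between 65860 and 96440. After scaling, the median probe differed by -0.57 on the log2 scale between the mean of the clones and shControl, and each member is also placed against that median. The 2 shControl arrays share one scan and the 4 arrays labelled shTug1 another, so against shControl an effect of the hairpin and one of the scan cannot be told apart, whereas clone 3 against clone 2 lies within 1 scan. Of 3 Tug1 probes, 1 was well above background on all 6 arrays, A_52_P599162, with scaled log2 levels of -2.88 and -2.49 in shControl, -1.86 and -1.88 in clone 2, and -3.10 and -3.23 in clone 3. Both clone 2 arrays were above both controls and both clone 3 arrays below them. The differences were 0.81 in clone 2 (limma adjusted p = 0.0823) and -0.48 in clone 3 (adjusted p = 0.329). The median probe differed by -0.72 in clone 2 and by -0.41 in clone 3. The signal of A_51_P119401 passed background on 0 of the 2 shControl arrays, both clone 2 arrays and 1 of the 2 clone 3 arrays. It thus passed the filter on dim probes only through clone 2 and had to differ if kept. Its value there, at least 2.79-fold higher (limma adjusted p = 0.0172), is therefore no support. The third probe passed background on none. The label of clone 2 is not borne out by A_52_P599162, and a fall of Tug1 in clone 3 was not shown. The arrays are called by their labels. Of 11 podocyte markers, 9 were well above background on all 6 arrays, as were 4 of 6 tubular, 2 of 5 endothelial, 2 of 5 mesangial and 2 of 3 immune markers, whereas Pdgfra, Des, Tek, Emcn and Slc12a1 were well above background on none. In the mean comparison 6 of 10 podocyte, 3 of 5 tubular, 1 of 2 mesangial, 1 of 2 endothelial and 0 of 3 immune markers tested were lower (limma), where 29.6% of all genes were. Synpo was counted as lower by its brightest probe, but its second probe was higher, at 2.41 (limma adjusted p = 0.021). With quantile normalization 3 of the 10 podocyte and 3 of the 5 tubular markers were lower, and 0 of the mesangial, endothelial and immune ones. Of all 25544 probes, 3438 were lower in that fit. The podocyte median was then -0.72 where all genes had -0.24. The summed linear level of the 10 podocyte markers, in units of the array's 75th percentile, was 117.6 to 127.5 in shControl, 63.5 to 66.3 in clone 2 and 61.3 to 65.4 in clone 3. That of the 5 tubular markers was 160.7 to 316 in shControl, 37.9 to 39.5 in clone 2 and 60.5 to 75.2 in clone 3, and most of it was Cdh16, at 151.2 and 310.8 in shControl. Likewise, most of the podocyte sum was Actn4, the brightest of those markers on every array. Before scaling, the controls had Actn4 at 27500 and 34800 intensity units. Both clone 2 arrays exceeded these values, at 47800 and 45700, while clone 3, at 31000 and 37300, overlapped them. The podocyte sum therefore describes mainly scaled Actn4. The part of these marker differences in the results for the members was not tested, and in bulk RNA fewer cells of a kind and less RNA per cell cannot be told apart.

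The members did not move as one group. In the mean of both clones against shControl, 3 of the 12 probes rose, both probes of Dnajb9 and the dimmer probe of Atf4, and 4 fell, those of Hspa5, Asns and Ddit4 and the brighter probe of Atf4. The other 5 probes, for Hsp90b1, Ddit3, Xbp1, Herpud1 and Trib3, did not pass the threshold (limma across all 25544 probes kept, Benjamini-Hochberg adjusted p under 0.05). Among all probes kept, 39.4% passed, 11.8% higher and 27.6% lower. The median log2 difference was -0.42 over the member probes and -0.57 over all probes, and 7 of the 12 members lay above the median probe. Neither the counts nor the median are read as particular to these genes. Without shControl replicate 1 the median was -0.33 over the members and -0.33 over all probes. Without shControl replicate 2 it was -0.08 over the members and -0.84 over all probes.

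**Figure D1:**
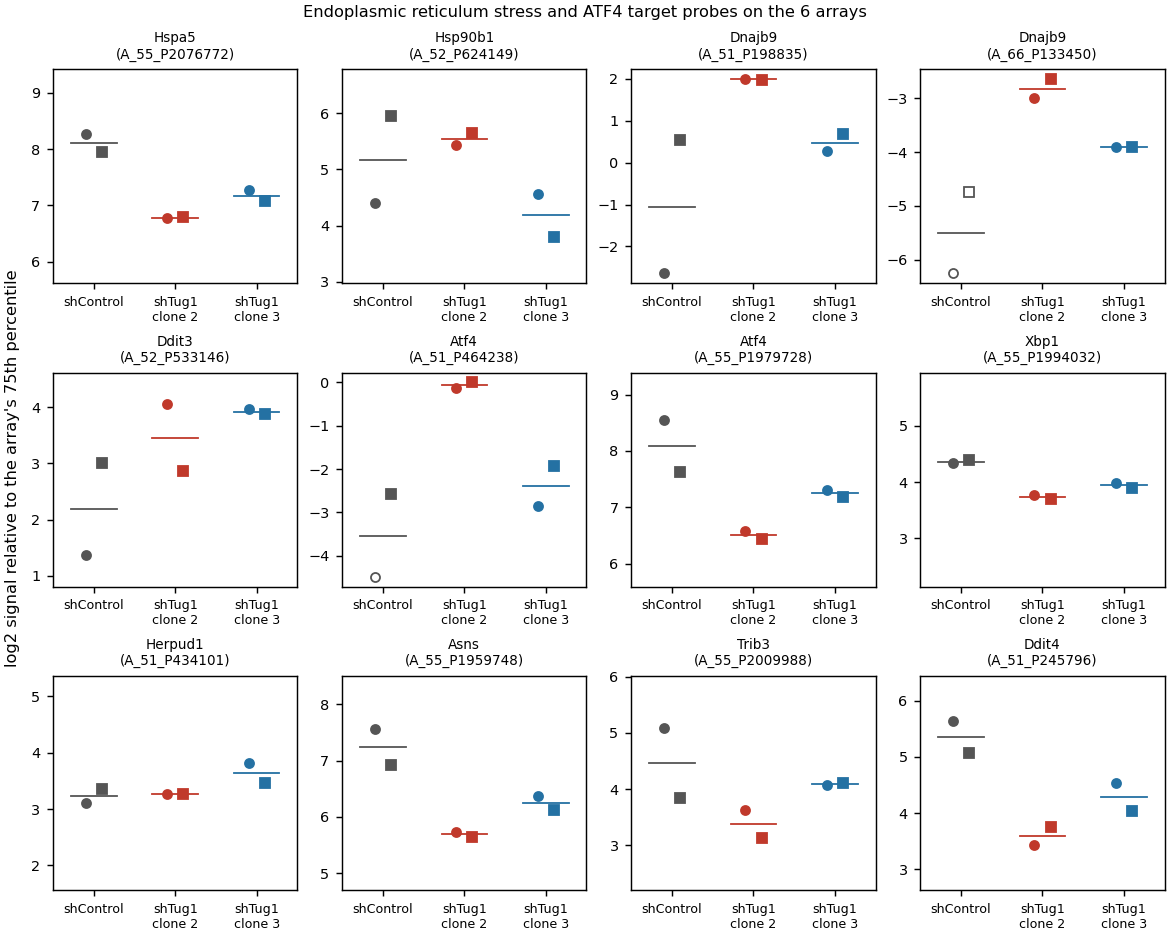
Scaled log2 level (log2 intensity minus the array's 75th percentile) of each of the 12 member probes on each of the 6 arrays, with group means as bars, circles for replicate 1, squares for replicate 2 and open points for spots not well above background. The clone arrays of Hspa5, Asns, Ddit4 and the brighter Atf4 probe lie below both shControl arrays, and those of Dnajb9 and the dimmer Atf4 probe lie mostly above them, with the shControl arrays far apart.

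Hspa5 (chr2:34772090-34776529) encodes BiP, the main chaperone of the endoplasmic reticulum and the protein that holds the stress sensors inactive. Its scaled log2 levels were 8.26 and 7.94 in shControl, 6.77 and 6.79 in clone 2, and 7.27 and 7.07 in clone 3. Both clones lay below both controls without overlap, with shControl highest and clone 2 lowest. The group means were 8.10 ± 0.23 in shControl, 6.78 ± 0.02 in clone 2 and 7.17 ± 0.14 in clone 3 (SD, n = 2 each), and the mean difference fell by 1.13 (SE 0.29, limma adjusted p = 0.024). Relative to the median probe the difference was -0.56, and 24.9% of all probes had a lower value. Before scaling, Hspa5 was at 99690 and 89330 intensity units in shControl, 115100 and 105300 in clone 2, and 87650 and 111700 in clone 3, so that unscaled, clone 2 lay above both controls and clone 3 overlapped them. On every array it lay above the intensity at which the brightest 1% of probes began. With quantile normalization, which forces all arrays to one distribution of intensities, the difference was 0.036 (limma adjusted p = 0.898), so that the direction of Hspa5 depends on the scaling.

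Hsp90b1 (chr10:86690841-86705444), the chaperone GRP94 whose promoter carries a pair of ERSE matches, had no shared direction. It stood at 4.40 and 5.95 in shControl, 5.43 and 5.65 in clone 2, and 4.56 and 3.81 in clone 3 on the scaled log2 level. The clone 2 arrays fell between the control arrays, and clone 3 lay below the higher control. The mean difference was -0.31 (SE 0.48, limma adjusted p = 0.602), and the sign turned with quantile normalization (0.49) and without shControl replicate 2 (0.46).

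Dnajb9 (chr12:44205897-44210068) encodes ERdj4, a partner of BiP and a known target of spliced XBP1. Its brighter probe, A_51_P198835, had scaled log2 levels of -2.64 and 0.54 in shControl, 1.99 and 1.97 in clone 2, and 0.27 and 0.67 in clone 3. While the controls were far apart, clone 2 lay above both, and 1 clone 3 array lay below the higher control. The mean difference was 2.27 (SE 0.77, limma adjusted p = 0.0486), and without shControl replicate 1 it was 0.68 (adjusted p = 0.103). The dimmer probe, A_66_P133450, was at 4.24 and 13.6 intensity units in shControl, not well above background on either array, and at 132 and 152 units in clone 2 and 38.04 and 55.4 in clone 3. All 4 clone arrays exceeded both controls, and because the controls give only a bound, the clones were at least 1.93-fold higher on average, at least 2.82-fold in clone 2 and at least 1.33-fold in clone 3. That bound sets the clones' mean scaled level against the lowest signal measured well above background on each control array, or the probe's own signal where higher. The measured difference was 2.13 on the log2 scale (SE 0.44, limma adjusted p = 0.0163), and with normexp background correction it was -0.011.

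Atf4 (chr15:80255184-80257545), the transcription factor at the centre of the amino acid and PERK arms, was measured by 2 probes that disagreed. The brighter one, A_55_P1979728, had scaled log2 levels of 8.54 and 7.62 in shControl, 6.58 and 6.44 in clone 2, and 7.31 and 7.19 in clone 3. Every clone array lay below both controls, and the mean difference fell by 1.21 (SE 0.35, limma adjusted p = 0.0317). The dimmer one, A_51_P464238, stood at -4.49 and -2.58 in shControl, -0.13 and -0.0026 in clone 2, and -2.86 and -1.94 in clone 3. Here clone 2 lay above both controls while clone 3 overlapped them, and the mean difference was 2.30 (SE 0.55, limma adjusted p = 0.0205). One of the controls, at 14.5 intensity units, was not well above background for this probe, and without that array the difference was 1.35 (adjusted p = 0.069). The brighter probe's unscaled intensities, 71700 to 121000 in shControl, 82340 and 100800 in clone 2, and 90190 and 121000 in clone 3, overlapped, and with quantile normalization its difference was -0.064 (adjusted p = 0.835). No single direction can be given for Atf4 RNA from these probes.

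**Figure D2:**
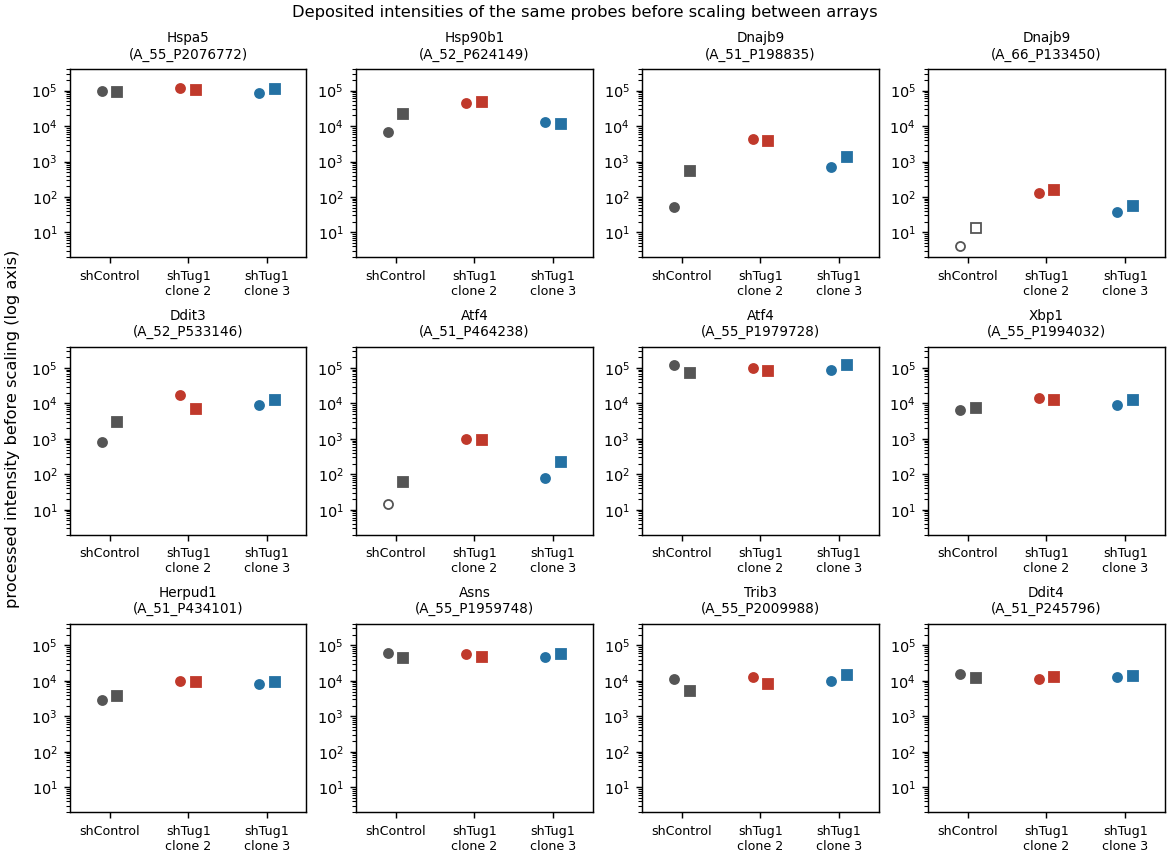
Unscaled intensity of each member probe on each array, on a log axis, with circles for replicate 1, squares for replicate 2 and open points for spots not well above background. Dnajb9, Ddit3, the dimmer Atf4 probe, Xbp1 and Herpud1 have every clone array above both shControl arrays, whereas Hspa5, the brighter Atf4 probe and Asns overlap between groups near the top of the range.

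The unscaled values give the opposite balance to the scaled ones. Before scaling, 6 of the 12 probes were higher in all 4 clone arrays than in both controls, where 46% of all probes were, and none was lower, where 2.12% of all probes were. After scaling, 1 probe was higher without overlap, the dimmer Dnajb9 probe, against 14% of all probes, and 5 were lower, against 40.3%. On both scales the larger share of all probes lay on the same side as the larger count of members.

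Ddit3 (chr10:127290793-127296291) encodes CHOP, the transcription factor that drives cell death after prolonged stress. Its scaled log2 levels were 1.38 and 3.00 in shControl, 4.05 and 2.87 in clone 2, and 3.97 and 3.87 in clone 3. One clone 2 array lay just below the higher control and the other clone arrays lay above both controls. The mean difference was 1.5 (SE 0.53, limma adjusted p = 0.0545), just short of the threshold. It passed with normexp correction (1.68, adjusted p = 0.00919), among probes well above background on all 6 arrays (adjusted p = 0.0292) and without shControl replicate 2 (2.31, adjusted p = 0.0138), and was 0.69 without shControl replicate 1.

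Xbp1 (chr11:5520641-5525993), the transcription factor of the IRE1 arm, lay between 4.34 and 4.39 on the scaled log2 level in shControl, 3.70 and 3.78 in clone 2, and 3.89 and 3.99 in clone 3. All clone arrays were below both controls, with a mean difference of -0.53 (SE 0.28, limma adjusted p = 0.16), close to that of the median probe. Unscaled, all clone arrays were above both controls, 9069 to 14470 against 6585 and 7611 intensity units, and quantile normalization gave 0.24.

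Among the downstream genes, Asns and Ddit4 were lower and Herpud1 and Trib3 did not pass. Asns (chr6:7675165-7693209), asparagine synthetase, is a standard ATF4 target and carries the composite element printed above. It stood at 7.56 and 6.92 in shControl, 5.74 and 5.65 in clone 2, and 6.38 and 6.12 in clone 3 on the scaled log2 level. The clones lay below both controls, clone 2 lowest, and the mean difference fell by 1.27 (SE 0.32, limma adjusted p = 0.0226). Its unscaled intensities overlapped, from 44090 to 61250 units in shControl and 47310 to 58000 in the clones, and with quantile normalization the difference was -0.26 (adjusted p = 0.323).

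Ddit4 (chr10:59949675-59951770) encodes REDD1, a stress-induced inhibitor of mTORC1. Its scaled log2 levels were 5.63 and 5.07 in shControl, 3.44 and 3.75 in clone 2, and 4.53 and 4.04 in clone 3. Without overlap, the groups ran from shControl down through clone 3 to clone 2. With a mean difference of -1.41 (SE 0.33, limma adjusted p = 0.0199) it was the largest fall among the members, and it was lower by every normalization tried, although with quantile normalization the value was -0.59 (adjusted p = 0.102). Its unscaled intensities overlapped, at 16060 and 12240 units in shControl, 11470 and 12770 in clone 2, and 13200 and 13680 in clone 3.

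Herpud1 (chr8:94386429-94395371), a membrane protein of endoplasmic reticulum associated degradation with both an ERSE-II and a composite element in its promoter, was between 3.11 and 3.36 in shControl, 3.26 and 3.27 in clone 2, and 3.46 and 3.81 in clone 3 on the scaled log2 level. Its mean difference was 0.21 (SE 0.29, limma adjusted p = 0.562). Trib3 (chr2:152337425-152344060), a pseudokinase induced by ATF4 and CHOP, was at 5.08 and 3.84 in shControl, 3.64 and 3.14 in clone 2, and 4.08 and 4.10 in clone 3. Its controls spanned the clone 3 arrays, and the mean difference was -0.72 (SE 0.41, limma adjusted p = 0.177).

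**Figure D3:**
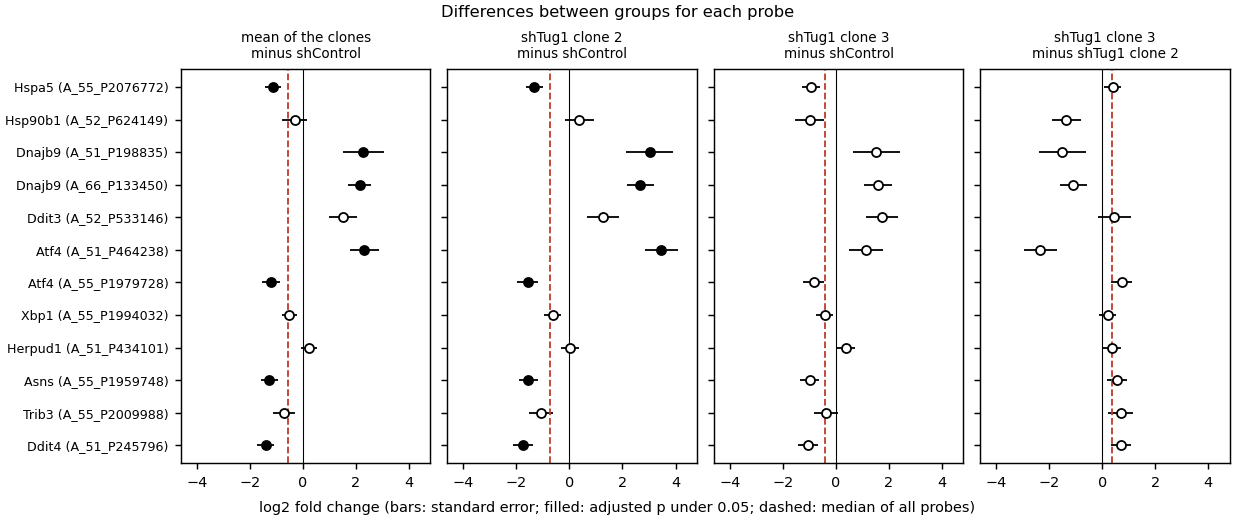
Log2 fold change of each member probe with its standard error, for the mean of the clones, clone 2 and clone 3 against shControl and for clone 3 against clone 2, with filled points where the limma adjusted p is under 0.05 and a dashed line at the median of all probes. The filled points are 3 rises and 4 falls in each of the first 2 comparisons, and none in the comparisons of clone 3.

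Taken singly, clone 2 had member calls and clone 3 had none. Against shControl, clone 2 had the same 3 rises and 4 falls, where 43.2% of all probes passed, 12.4% higher and 30.9% lower. The brighter Dnajb9 probe was higher by 3.03 (SE 0.88, limma adjusted p = 0.0303). The dimmer Dnajb9 probe allows only the bound given above (adjusted p = 0.0133), and the dimmer Atf4 probe, measured on 1 of the 2 shControl arrays, was at 3.47 (SE 0.63, adjusted p = 0.012). Ddit4 fell by 1.75 (SE 0.38, adjusted p = 0.0162), the brighter Atf4 probe by 1.57 (SE 0.40, adjusted p = 0.0214), Asns by 1.55 (SE 0.37, adjusted p = 0.0184) and Hspa5 by 1.32 (SE 0.34, adjusted p = 0.0213). For clone 3, 0 of the 12 members passed (5 at an unadjusted p under 0.05), where 8.99% of all probes did, 4.78% higher and 4.21% lower. Its values had the same sign as those of clone 2 for every member but Hsp90b1, from 1.73 for Ddit3 (limma adjusted p = 0.0965) to -1.06 for Ddit4 (adjusted p = 0.1). These comparisons share the shControl arrays. Without shControl replicate 2, the median difference in clone 3 was -0.31 over the members and -0.67 over all probes.

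Clone 3 against clone 2, measured within 1 scan, is the test of whether the clones differ, and 0 of the 12 members passed (2 at an unadjusted p under 0.05), where 1.86% of all probes did. The largest differences were those of the dimmer Atf4 probe, -2.33 (SE 0.63, limma adjusted p = 0.156), the brighter Dnajb9 probe, -1.51 (adjusted p = 0.384), and Hsp90b1, -1.36 (SE 0.55, adjusted p = 0.372). So clone 3 was not shown to differ from clone 2 in any member. The dimmer Atf4 probe passed with normexp correction (-1.86, adjusted p = 0.01) and with replicate as a block (adjusted p = 0.0464), and the brighter Dnajb9 probe in a fit of the 4 shTug1 arrays alone (adjusted p = 0.0465).

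**Figure D4:**
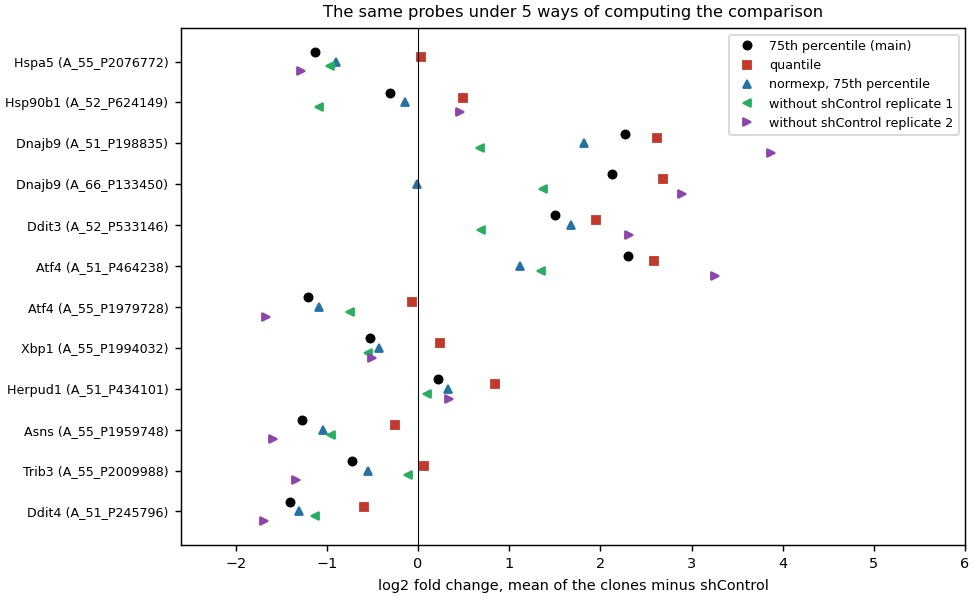
Log2 fold change of each member probe, mean of the clones against shControl, computed in 5 ways, with the 75th percentile scaling, with quantile normalization, with normexp correction and without each of the shControl arrays. Hspa5, Asns and the brighter Atf4 probe (A_55_P1979728) move from negative values to near 0 with quantile normalization, and the brighter Dnajb9 probe (A_51_P198835) ranges from 0.68 to 3.87 with the shControl array left out.

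Of the 7 member calls, 2 were also made with quantile normalization. In that fit 2 members rose, the dimmer probes of Dnajb9 (2.69, limma adjusted p = 0.0324) and Atf4 (2.59, adjusted p = 0.048), and 0 fell. Both passed the filter only through the clones, so these calls are no support. The calls over all probes went from 10054, of which 29.9% were higher, to 6889, of which 50.1% were higher, and the median probe from -0.57 to -0.18. Relative to that median, 10 of the 12 members lay above it. The deposited series values, available for 10 of the 12 probes and not for those dimmer probes, gave the quantile fold changes of these 10 to within 0.01, with 0 falls and 2 rises, Ddit3 at 1.95 (limma adjusted p = 0.0424) and Herpud1 at 0.84 (adjusted p = 0.0451).

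Other genes of the pathway were listed by role in 6 lists (mean of the clones against shControl, 1 brightest probe per gene, for which 10% of all genes were higher and 29.6% lower, with a median of -0.64). In the fit with quantile normalization, given below for the lists, 3451 of all 25544 probes were higher and 3438 lower. Of 14 stress sensors and regulators of the translation arm, 4 rose, 2 fell and 8 did not pass, with a median of -0.60. Eif2b5, the catalytic subunit of the exchange factor that phosphorylated eIF2α blocks, rose by 2.13 (SE 0.40, limma adjusted p = 0.0134), and Nck1, an adaptor that modulates PERK, by 2.06 (SE 0.48, adjusted p = 0.0193). The other 2 rises, Atf6 and Atf6b, were each well above background on 1 shControl array. They passed the filter on dim probes only through the clones, so these calls are no support. Eif2ak4, the amino acid sensor GCN2, fell by 0.89 (adjusted p = 0.0395), and with quantile normalization it was at -0.48 (limma adjusted p = 0.136). In that fit 3 genes of the list were higher and 0 lower, with a median of -0.02 where all genes had -0.24, so the calls of falls depend on the scaling. The other fall was Eif2ak3, which encodes PERK, at -1.29 (SE 0.38, limma adjusted p = 0.0342). Before scaling, Eif2ak3 was at 696 and 1630 intensity units in shControl, 3810 and 3180 in clone 2 and 313 and 321 in clone 3, so the clones went apart. After scaling, its difference from shControl was 0.16 in clone 2 (limma adjusted p = 0.766) and -2.75 in clone 3 (adjusted p = 0.0259).

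Of 17 tested chaperones and folding enzymes, 5 rose, 5 fell and 7 did not pass, with a median of -0.13. Among the rises, Dnajc3 was well above background on 1 shControl array and Ero1b on 0. Both passed the filter only through the clones, so their calls are no support. With quantile normalization 5 were higher and 1 lower, with a median of 0.69 where all genes had -0.24, so most of the falls depend on the scaling. The rises included the disulfide isomerases P4hb, at 3.50 (SE 0.52, limma adjusted p = 0.00954), and Pdia3, at 2.72 (SE 0.50, adjusted p = 0.0132). The falls included Dnajc10, the reductase ERdj5, at -1.74 (adjusted p = 0.0156), whose second probe was at 0.73, and Uggt1, the enzyme that tags unfolded glycoproteins for another round of folding, at -1.41 (adjusted p = 0.018). Of 14 genes of endoplasmic reticulum associated degradation, 3 rose and 4 fell, with a median of -0.38, and with quantile normalization 3 were higher and 1 lower, with a median of 0.18. Of the rises, Sel1l and Edem2 were well above background on 0 shControl arrays. Their calls are likewise no support. Selenos, part of the retrotranslocation complex, rose by 2.04 (SE 0.60, limma adjusted p = 0.0337), and the lectins Os9 and Erlec1, which deliver misfolded glycoproteins, fell by 1.79 (adjusted p = 0.0214) and by 1.47 (adjusted p = 0.0286).

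The other ATF4 targets were counted by role, and differences between the lists were not tested. Of 12 tested genes of amino acid synthesis and transport, 6 rose and 1 fell, with a median of 0.60 against -0.64 over all genes. Among the rises, Mthfd2 was well above background on 1 shControl array. It passed the filter only through the clones, so its call is no support. Slc7a5 had a second probe that was lower, at -1.20 (limma adjusted p = 0.0354). Slc38a2, the amino acid transporter SNAT2, rose by 3.13 (SE 0.51, limma adjusted p = 0.0109) and Aldh18a1, of proline synthesis, by 3.07 (SE 0.76, adjusted p = 0.0222), whereas Phgdh, of serine synthesis, fell by 1.24 (adjusted p = 0.0335), with a second probe at -0.35 (adjusted p = 0.402). Of 11 aminoacyl-tRNA synthetases, 0 rose and 5 fell (limma), with a median of -1.06, led by Cars at -1.53 (adjusted p = 0.0214) and Aars at -1.42 (adjusted p = 0.0294). A second probe of Wars was higher, at 1.41 (limma adjusted p = 0.0284). With quantile normalization 2 synthetases were higher and 1 lower, so their direction depends on the scaling, whereas 5 of the 12 amino acid genes were then higher and 0 lower. Of all 25544 probes, 3451 were higher and 3438 lower in that fit. Of 15 tested stress regulators, 3 rose and 3 fell, with a median of -0.72. Atf3 rose by 1.64 (SE 0.41, limma adjusted p = 0.0224) and Trib1 by 1.20 (adjusted p = 0.0195), while, among the falls, Stc2, a secreted glycoprotein, was at -2.15 (SE 0.41, adjusted p = 0.0138) and Bbc3, the death-promoting protein PUMA, at -1.78 (SE 0.33, adjusted p = 0.0132). Without shControl replicate 1 the median was 0.99 over the amino acid genes, -0.64 over the synthetases and -0.39 over all genes. Without shControl replicate 2 these medians were 0.53, -1.52 and -0.92. The sizes of the named rises depended on the control array. The fits without shControl replicate 1 and without replicate 2 gave 1.61 and 2.65 for Eif2b5, 1.23 and 2.90 for Nck1 and 2.52 and 4.47 for P4hb. They gave 1.92 and 3.52 for Pdia3, 0.84 and 3.24 for Selenos and 2.37 and 3.89 for Slc38a2. Aldh18a1, at 24.8 and 250 intensity units in shControl, was at 1.48 and 4.66. Atf3 was at 1.06 and 2.21, and Trib1 at 1.20 in both. Of the 20 pathway genes chosen here by size, each well above background on all 6 arrays, 8 of the 9 rises and 4 of the 11 falls passed with quantile normalization. Without clone 3 replicate 1, 4 rises and 2 falls passed, and without clone 3 replicate 2, 3 rises and 0 falls.

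**Figure D5:**
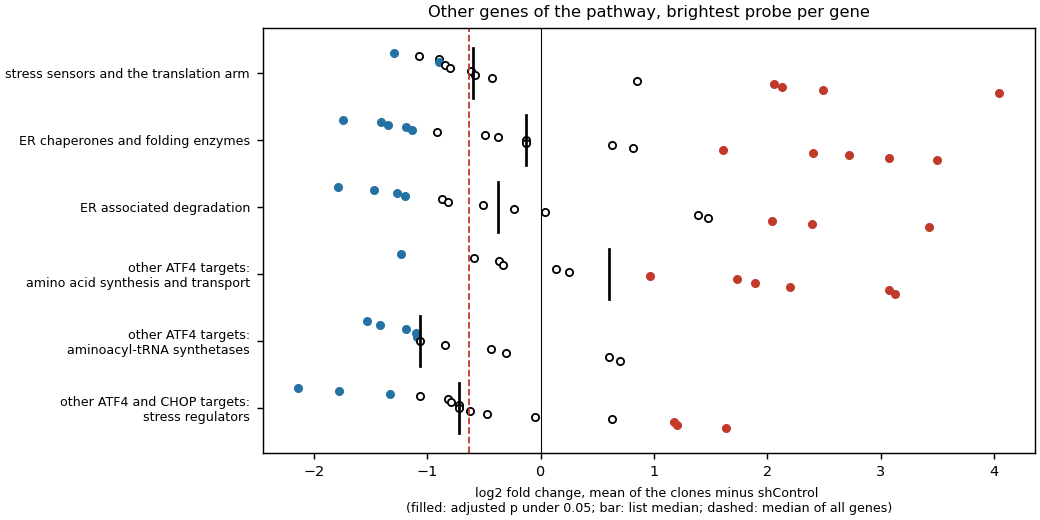
Log2 fold change of the other genes of the pathway, mean of the clones against shControl, in 6 lists by role, each point a gene by its brightest probe, filled where the limma adjusted p is under 0.05, with a bar at the list median and a dashed line at the median of all genes. The points include 7 rises of genes not well above background on both controls (2 in each of the first 3 lists and 1 among the amino acid genes). These 7 passed the filter on dim probes only through the clones. Amino acid synthesis and transport has the highest list median, 0.60, and the aminoacyl-tRNA synthetases the lowest, -1.06.

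The genes whose course over the 6 arrays was most like that of 2 members were sought by the root mean square difference of centred log2 levels, among 12331 genes well above background on all 6 arrays. For Hspa5 they were Jund, at 0.029, Thumpd1, at 0.042, and Fbxl12, at 0.048, against a median of 0.43 over all genes. For the brighter Atf4 probe they were Cdc42ep1, at 0.025, H13, at 0.034, and Rtl8b, at 0.046, against a median of 0.45. None of these 6 genes is a member or on a pathway list, and the 6 arrays share the scan and scaling described above.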

How the data were processed

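RNA of 6 samples was hybridised to one-colour Agilent arrays, per the labels' protocols, and the authors deposited background-subtracted intensity values (processed signal) with background flags from Feature Extraction 11.0.1.1, per the file headers. The deposited series table holds log2 values of 19819 probes, and the sources used here give no normalization for it. Here intensities were turned into log2 values minus each array's 75th percentile over gene spots. Spots marked as outliers were left out, which removed 14 probes, and spots of a probe were averaged. The 25544 probes well above background on both arrays of a group were fitted together with limma 3.58.1 (R 4.3.3) as 3 group means, with 3 residual and 4.606 prior degrees of freedom. An exact permutation of 4 against 2 arrays cannot go below p = 0.0667, so none was run. The fit was tested on simulated data. Alternatives were quantile normalization, normexp correction (offset 50, median signals, since the files hold no mean signals), other filters, 1 probe per gene, the series values, a replicate block and leaving out each array. The number of arrays limits the precision.

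The members, lists and tests were chosen with earlier results of these data known. Named genes are all members, up to 2 rises and 2 falls of each list by size among called genes well above background on all 6 arrays, and 3 most similar genes each for Hspa5 and Atf4. Replicate numbers did not pair arrays.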

Additional observations from a re-analysis of the deposited data

Results flagged for a closer look

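Eif2ak3, which encodes the stress kinase PERK, differed between the clones, by a test of the difference itself within 1 scan. Clone 3 minus clone 2 was -2.92 on the scaled log2 level (SE 0.44, limma adjusted p = 0.0252). The unscaled intensities were 3810 and 3180 units in clone 2 and 313 and 321 in clone 3. The adjusted p was 0.0561 under quantile normalization and 0.143 in the deposited series values, and 0.174 and 0.152 without either clone 3 array, while the difference lay between -3.17 and -2.66 in all settings tried. Groups of 2 arrays were too small for a check of single outlying arrays.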

How the results depend on the processing

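Counts are given over all probes and over the members. With quantile normalization 2 members passed in the mean comparison and 2 in clone 2, with 6895 probes in clone 2 and 144 for clone 3 against clone 2. With the deposited series values 2 members passed in the mean comparison and 1 in clone 2, with 6226 probes in each and 0 for clone 3 against clone 2 (2847 at an unadjusted p under 0.05, limma). With normexp correction 17092, 17722 and 7939 probes passed in the mean, clone 2 and clone 3 comparisons, with 2 members in clone 3 and 1 in clone 3 against clone 2. Without a filter 978 probes passed in clone 3 and 260 for clone 3 against clone 2, where 44 passed among probes well above background on all arrays, 272 by 1 probe per gene and 831 (1 member) with the 4 shTug1 arrays alone. The replicate number as a block gave 719 probes and 1 member for clone 3 against clone 2, and 7 members in the mean comparison as before; the numbers did not pair arrays, with correlations of replicate differences of -0.03, 0.12 and -0.09.

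Leaving out 1 array, the mean comparison gave 718 to 16535 probes and 0 to 9 members, clone 2 gave 4124 to 17538 and 3 to 10, clone 3 gave 0 to 13105 and 0 to 9, and clone 3 against clone 2 gave 0 to 976 probes. Where this left 1 array in a group, that array was assumed to vary like the other groups.

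Signs turned as follows, the cause not tested. With quantile normalization the mean comparison gave 0.036 for Hspa5, 0.49 for Hsp90b1, 0.24 for Xbp1 and 0.066 for Trib3 (series values 0.036, 0.49, 0.24 and 0.065). Clone 2 gave 0.11 for Hspa5 and 0.36 for Xbp1 (series values 0.11 and 0.36). Clone 3 gave 0.041 for the brighter Atf4 probe, 0.11 for Xbp1 and 0.20 for Trib3 (series values 0.041, 0.11 and 0.20). Clone 3 against clone 2 gave -0.15 for Hspa5, -0.25 for Xbp1, -0.054 for Herpud1 and -0.046 for Asns (series values -0.15, -0.25, -0.053 and -0.046). Normexp correction gave -0.011 in the mean comparison and -0.25 in clone 3 for the dimmer Dnajb9 probe, and -0.26 and -0.015 for the Tug1 probes A_52_P599162 and A_51_P119401. Leaving out 1 array, the mean comparison ran from -0.029 (without shControl replicate 1) to 0.36 for the former and from -1.09 to 0.46 (without shControl replicate 2) for Hsp90b1. Clone 2 ran from -0.41 to 1.15 for Hsp90b1 and from -0.091 to 0.15 for Herpud1, the low ends without shControl replicate 1. Clone 3 ran from -0.075 to 3.11 for the brighter Dnajb9 probe and from -0.99 to 0.24 for Trib3, and clone 3 against clone 2 from -0.13 (without clone 2 replicate 2) to 1.05 for Ddit3.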
